A study of Mus musculus with 16 samples.

Results

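The 51 genes described here code for proteins that remove reactive oxygen species, keep cysteine thiols reduced, or bind metal ions. They were chosen as a list of symbols, and all 51 were found among the 11710 genes of the deposited counts and were tested, in a test that covered 11709 genes. By their roles, 7 are regulators and targets of the transcription factor NRF2, 3 are superoxide dismutases, 15 act on peroxides, 17 belong to glutathione metabolism, 5 to the thioredoxin system, and 4 code for metallothioneins and ferritin subunits. Their RNA was measured by sequencing in a mouse rotator cuff muscle, one of the shoulder muscles, in 16 samples that form 4 groups of 4. The groups are C57BL/6J mice (BL6, a common inbred strain) without an operation, BL6 mice after tenectomy and denervation, MRL/MpJ mice (MRL, an inbred strain studied for the way some of its wounds heal) without an operation, and MRL mice after tenectomy and denervation. Every operated mouse had its tendon removed and its muscle denervated, so the 2 injuries cannot be told apart, and the controls are labelled as unoperated, not as sham-operated. GEO's text is divided on the muscle, with infraspinatus in the design and supraspinatus on the samples, and the labels used here do not give age, sex or the time after surgery. They also do not say whether each sample came from its own animal, so p-values measure only the spread between these samples.

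Superoxide dismutases turn superoxide into hydrogen peroxide, which catalase, glutathione peroxidases and peroxiredoxins then break down. Glutathione and thioredoxin supply the electrons for much of this and are themselves reduced by glutathione reductase and the thioredoxin reductases, which draw on NADPH. NRF2 (Nfe2l2) is held in check by KEAP1 and switches on many of these genes through a short promoter sequence called the antioxidant response element, while metallothioneins are induced by zinc and other metals and ferritin stores iron. Denervated and unloaded muscle is known for increased production of reactive oxygen species.

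Total counts per sample ran from 24323862 to 43552964, and 3 counts, taken as the detection floor, came to at most 0.123 counts per 1000000 counts (CPM). In BL6 the members took 0.610% ± 0.0317 of counts without and 0.757% ± 0.119 with surgery (mean ± SD, n = 4), and in MRL 0.737% ± 0.0541 and 0.750% ± 0.0541. All 10 muscle fibre markers were measured, and their summed level was 120980 to 176166 CPM in the unoperated samples. In operated BL6, replicate 4 stood apart from the other 3 samples, with summed macrophage and leukocyte markers of 916 CPM against 138 to 262, fibroblast markers of 9831 CPM against 2024 to 3483, and muscle fibre markers of 55586 CPM against 82668 to 149331. In unoperated MRL, replicate 1 had a macrophage and leukocyte sum of 549 CPM against 117 to 149. Replicate 1 of unoperated BL6 had such a sum of 204 CPM against 57.45 to 85.6, and fibroblast markers of 3134 CPM against 1390 to 2033. In operated MRL, replicate 4 had 11.8% of its counts in mitochondrial genes against 20.1 to 24.9%, and an endothelial sum of 388 CPM against 794 to 969. After surgery in BL6, 10 of 13 macrophage and leukocyte markers, 6 of 10 fibroblast markers, 8 of 9 adipocyte markers, 6 of 8 endothelial markers and all 7 Schwann cell markers were higher, and 5 of 10 muscle fibre markers were lower. In MRL, 1 of the 13 macrophage and leukocyte markers, none of the fibroblast markers, 7 of 9 adipocyte, 7 of 8 endothelial and 5 of 7 Schwann cell markers were higher, and 3 of 10 muscle fibre markers were lower. No erythroid marker was called in either strain. In bulk muscle, fewer cells of a type and less RNA per cell cannot be told apart, and the part of cell composition in the results below was not tested except where a value is given.

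**Figure D1:**
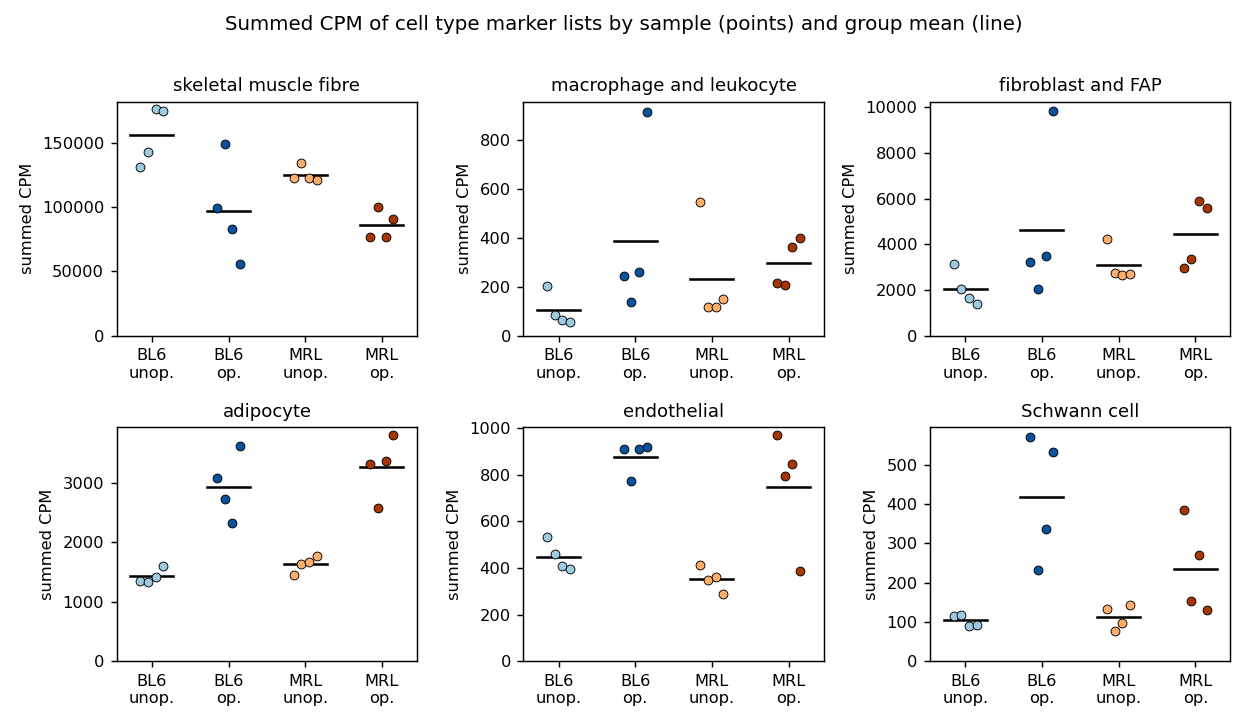
Summed CPM of 6 lists of cell type markers (vertical axes, linear from 0) in each sample, by group (horizontal axis); points are samples and lines group means. Replicate 4 of operated BL6 is the highest point for macrophage and fibroblast markers, at 916 and 9831 CPM, and adipocyte sums of the operated groups lie above those of the unoperated groups in both strains.

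Surgery changed many members in BL6, mostly upward: metallothioneins, ferritin light chain, the extracellular superoxide dismutase, the glutathione peroxidases Gpx1, Gpx4, Gpx7 and Gpx8 and the peroxiredoxins Prdx2, Prdx4 and Prdx5 rose, while glutaredoxin, cytosolic thioredoxin reductase, NQO2, catalase and mitochondrial superoxide dismutase fell. In BL6, 30 of 51 members passed an adjusted p of 0.05 (edgeR's quasi-likelihood test, Benjamini-Hochberg adjustment over all genes), 22 higher and 8 lower. Of all genes tested, 67.9% passed in this comparison, 35.1% higher and 32.8% lower, so the members' share was not above the background. In MRL, 15 of 51 passed, 8 higher and 7 lower, against 45.0% of all genes, 22.3% higher and 22.7% lower. The members' median log2 fold change was 0.25 in BL6 and 0.07 in MRL, beside 0.04 and 0.01 over all genes.

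All samples of a group lay on the same side of the other group in 24 members in BL6, where 56.8% of all genes had such groups, and in 14 members in MRL, where 33.7% had. Of the called members, 7 had overlapping groups in BL6 (Hmox1, Sod3, Prdx5, Gclm, Gstm1, Gstt1 and Gstk1) and 4 in MRL (Sod1, Gpx4, Gsr and Txnrd2). In the authors' deposited table of their own comparisons, 30 members passed in BL6 and 23 in MRL, among them all 30 and all 15 called here, with the same signs. The 8 that passed in MRL only in the authors' deposited table were Hmox1, Sod2, Sod3, Gpx1, Gpx7, Prdx3, Gstt1 and Ftl1. Both strains called 8 members higher (Sod1, Gpx4, Gpx8, Prdx2, Prdx4, Gss, Txn1 and Txnrd2) and 5 lower (Keap1, Nqo2, Gsr, Glrx and Txnrd1), and none was called in opposite directions. A further 17 were called only in BL6's test and 2, Prdx1 and Gsto1, only in MRL's. Calls in the same direction in both strains thus covered 25.5% of members, beside 40.8% of all genes tested. Over all 11709 genes, 2328 were higher and 2446 lower in both strains, and 9 were called in opposite directions. Another 3167 genes were called only in BL6 and 489 only in MRL. The test of the difference between the strains is given further on. Leaving out replicate 4 of operated BL6 gave 33 calls in BL6, 25 higher and 8 lower. In MRL the count was 20 without replicate 4 of the operated group, 18 without replicate 1 of the unoperated group and 9 without replicate 3 of the operated group.

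**Figure D2:**
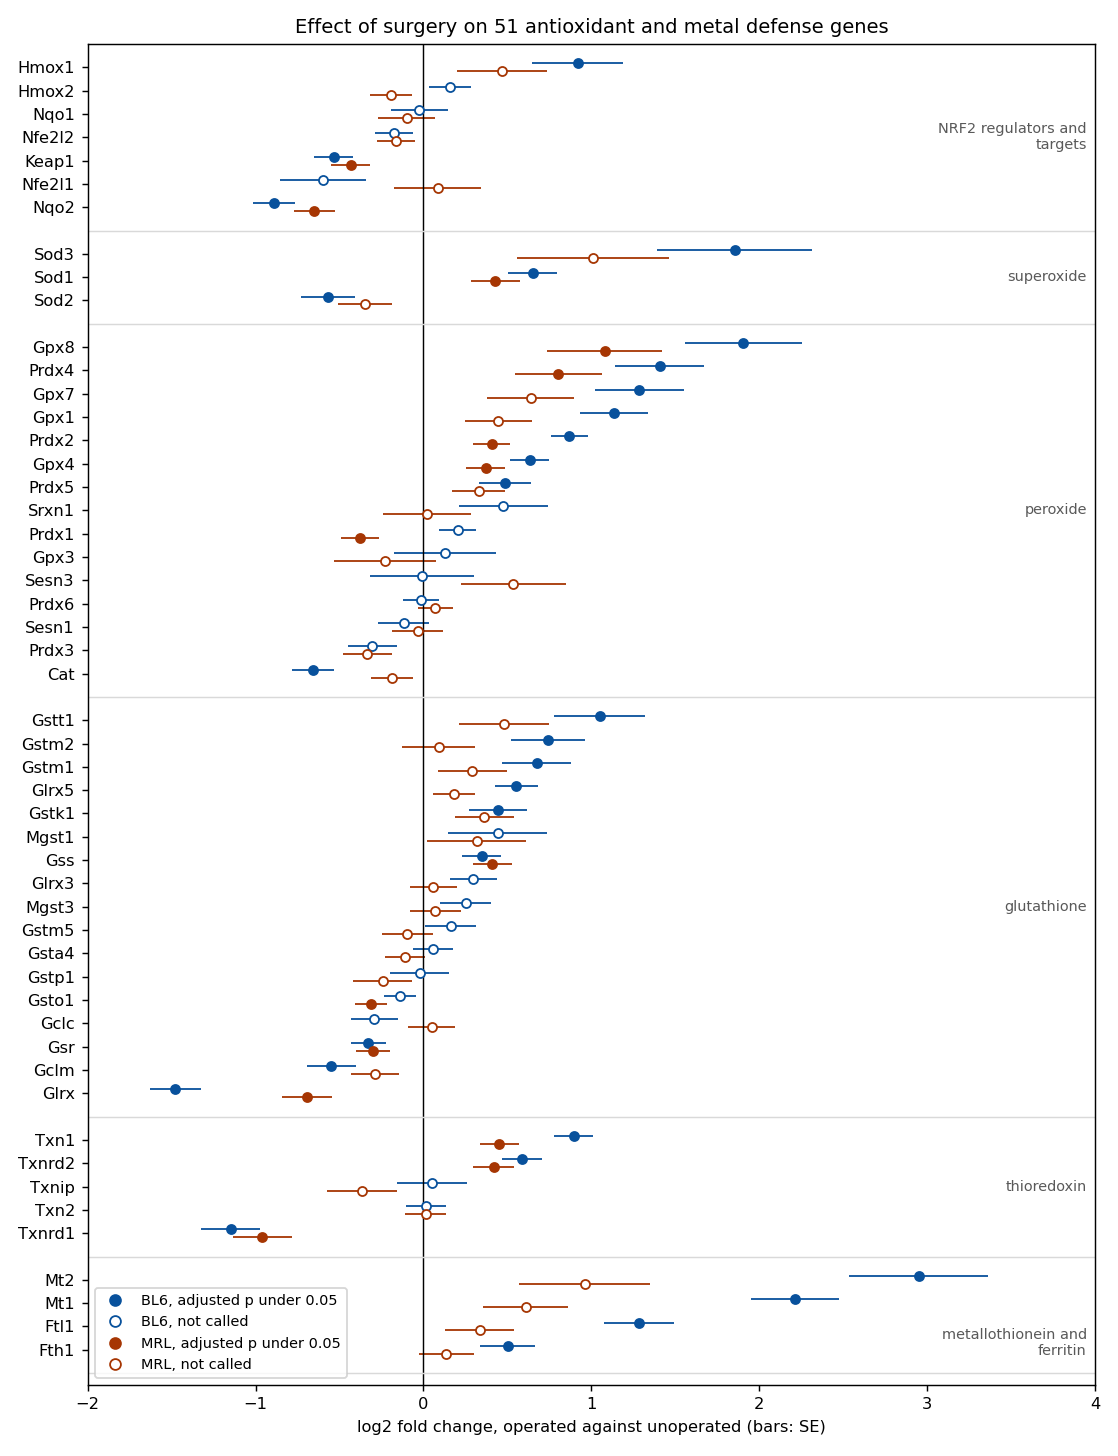
Log2 fold change of each of the 51 members after surgery (horizontal axis, operated against unoperated; bars are the SE) in BL6 (blue) and MRL (brown), grouped by system and sorted by the BL6 value; filled points passed an adjusted p of 0.05. The 22 filled BL6 points to the right of 0 reach 2.95 for Mt2, and the 8 to the left reach -1.48 for Glrx.

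In the sentences below, 4 values in a row are replicates 1 to 4 of a group in CPM scaled by edgeR's TMM factors, and gene coordinates are those of GENCODE M21 on build GRCm38 (mm10). Levels between genes were compared as CPM per kilobase of annotated exon. In unoperated BL6 the most abundant members were Gpx3, the plasma glutathione peroxidase, at 391 CPM per kilobase, Fth1 at 339, Mgst3 at 289, Txnip at 217 and Prdx3, a mitochondrial peroxiredoxin, at 179. These 5 were also the highest 5 in each of the other 3 groups, with Fth1 first in all 3. The lowest level in unoperated BL6 was that of Gss, glutathione synthetase, at 1.26 CPM per kilobase.

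Of the NRF2 regulators and their targets, Keap1 and Nqo2 fell in both strains, Hmox1 rose in BL6, and Nfe2l2 itself did not pass the test in either. Nfe2l2, which codes for NRF2, stood at 48.96, 49.9, 50.7 and 52.8 CPM in the unoperated BL6 samples and 50.6, 48.2, 38.6 and 41.7 CPM in the operated ones, where the groups overlapped. Its log2 fold change was -0.18 in BL6 (SE 0.11, adjusted p = 0.177) and -0.16 in MRL (adjusted p = 0.249).

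Keap1 (ENSMUSG00000003308; chromosome 9, 21229730 to 21239361), the adaptor that marks NRF2 for degradation, went from 74.02, 87.9, 96.9 and 86.1 to 56.3, 70.97, 56.7 and 53.97 CPM in BL6. All 4 operated samples were below all 4 unoperated ones, although replicate 2 of the operated group came close. Keap1 thus fell in BL6 (log2 fold change -0.54, SE 0.12, adjusted p = 0.000932). In MRL, Keap1 went from 79.6 ± 3.64 to 58.9 ± 7.59 CPM (mean ± SD, n = 4), again without overlap (log2 fold change -0.43, adjusted p = 0.00867).

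Nqo2, a quinone reductase related to NQO1, was tight within the unoperated groups. It held 36.02, 35.95, 36.3 and 37.5 CPM in unoperated BL6 and 19.8, 22.9, 18.8 and 16.97 CPM in operated BL6, a gap far wider than the spread of either group (log2 fold change -0.89, SE 0.12, adjusted p = 4.16e-05). In MRL it held 31.1, 36.3, 38.1 and 37.3 CPM before and 21.7, 22.9, 17.9999 and 28.4 CPM after surgery (log2 fold change -0.65, adjusted p = 0.00184). Exons of Nqo2 share 18.9% of their bases with Serpinb6a on the opposite strand, and the use of strand in counting is not given in the sources used here.

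Nqo1, the textbook NRF2 target that reduces quinones, held 24.7 ± 6.82 CPM before and 24.3 ± 3.74 CPM after surgery in BL6, and 29.1 ± 2.57 and 27.1 ± 1.59 CPM in MRL. Its log2 fold changes of -0.02 and -0.10 did not pass the test (adjusted p = 0.905 and 0.645).

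Hmox1, the inducible heme oxygenase that frees iron from heme, held 17.1, 14.2, 9.57 and 9.96 CPM in unoperated BL6 and 22.9, 26.3, 11.8 and 34.7 CPM in operated BL6. The groups overlapped, with replicate 3 of the operated samples inside the unoperated range and replicate 4 the highest (log2 fold change 0.92, SE 0.27, adjusted p = 0.00753). In MRL the values were 14.5 ± 3.37 and 20.1 ± 2.82 CPM (log2 fold change 0.47, adjusted p = 0.163). Hmox2, the constitutive form, was called in neither strain.

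Nfe2l1, a relative of NRF2 that drives proteasome genes, stood at 532, 599, 792 and 762 CPM in unoperated BL6 and at 437, 408, 468 and 461 CPM in operated BL6. These groups did not overlap, but the adjusted p was 0.0508, and it was 0.0395 without replicate 1 of the unoperated group. In operated MRL, replicate 4 held 922 CPM against 373 to 399 in the other 3, and Nfe2l1 was not called there.

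The antioxidant response element was looked for as TGACNNNGC, on both strands, in the 250 bases before each start site listed by RefSeq (build GRCm38.p6), where 45 of the 51 members had 62 such windows. It was present in 8 of the 62 windows, each of a different member, and in 10.2% of all 32851 windows. The matches of 6 individually described members are shown with 10 bases on each side, and capitals mark the match, read in its own direction.
Nfe2l2 (chr2:75704885-75704913, same strand as the gene): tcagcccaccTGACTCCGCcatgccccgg
Gclm (chr3:122245413-122245441, opposite strand): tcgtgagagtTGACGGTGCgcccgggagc
Txnrd1 (chr10:82859104-82859132, opposite strand): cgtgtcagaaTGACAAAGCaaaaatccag
Prdx1 (chr4:116685456-116685484, opposite strand): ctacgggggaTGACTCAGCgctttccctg
Sod1 (chr16:90220696-90220724, opposite strand): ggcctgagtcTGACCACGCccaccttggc
Mt2 (chr8:94172529-94172557, same strand): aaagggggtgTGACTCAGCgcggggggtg
In Prdx1 and Mt2 the opening letters of the match, TGACTCA, also spell the motif of the factor AP-1. The other 2 matches were in Gstm5 and Mgst1. Of the 8 members, 2 rose in BL6 (Sod1 and Mt2), 2 fell (Gclm and Txnrd1) and 4 were not called. In MRL 1 rose (Sod1), 2 fell (Prdx1 and Txnrd1) and 5 were not called. Of the 37 members without a match, 18 rose and 5 fell in BL6, and 7 rose and 4 fell in MRL. Of all genes, 35.1% were higher and 32.8% lower in BL6, and 22.3% and 22.7% in MRL. Members with and without a match thus moved in both directions in both strains.

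All 3 superoxide dismutases passed the test in BL6, the cytosolic and extracellular ones upward and the mitochondrial one downward. In the same comparison 67.9% of all genes passed. Sod1 (ENSMUSG00000022982; chromosome 16, 90220754 to 90226329), the cytosolic copper and zinc enzyme, held 126, 142, 121 and 115 CPM in unoperated BL6 and 208, 215, 188 and 180.4 CPM in operated BL6. The groups did not overlap (log2 fold change 0.65, SE 0.15, adjusted p = 0.00129). The MRL samples held 159.6, 137, 121 and 139.7 CPM and 202, 229.7, 185 and 133 CPM. Replicate 4 of the operated MRL group lay within the unoperated range. The MRL change was 0.43 (adjusted p = 0.0279), and the call was lost, at adjusted p of 0.0543 to 0.0991, on leaving out any of replicates 2, 3 and 4 of the unoperated or 1, 2 and 3 of the operated MRL samples.

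Sod2 (ENSMUSG00000006818; chromosome 17, 13006846 to 13040063), the manganese enzyme of mitochondria, held 342, 324, 344 and 353 CPM in unoperated and 249, 273, 244 and 154 CPM in operated BL6. Every operated sample was lower than every unoperated one, and replicate 4 was the lowest (log2 fold change -0.57, SE 0.16, adjusted p = 0.00565). Its MRL levels were 340.2 ± 33.4 and 267 ± 39.3 CPM, with overlap (log2 fold change -0.35, adjusted p = 0.0842). Mitochondrial genes took 17.4 to 23.8% of counts in operated BL6 and 12.2 to 14.2% in unoperated BL6, so their share was higher while Sod2 was lower.

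Sod3 (ENSMUSG00000072941; chromosome 5, 52363791 to 52371418), the secreted copper and zinc enzyme, held 19.6, 10.1, 7.64 and 7.20 CPM in unoperated and 32.5, 14.6, 27.2 and 85.95 CPM in operated BL6. Replicate 4 was far above the other operated samples, and replicate 2 lay within the unoperated range. The log2 fold change was 1.85 (SE 0.46, adjusted p = 0.00256), and without replicate 4 it was 1.15 (adjusted p = 0.0132). In MRL, Sod3 held 18.2, 12.4, 9.74 and 13.9 CPM before and 17.8, 20.7, 34.3 and 36.6 CPM after surgery (log2 fold change 1.01, adjusted p = 0.0786). In operated BL6, the fibroblast marker sums were 3215, 2024, 3483 and 9831 CPM from replicate 1 to replicate 4. This was the order of Sod3 there, except that replicates 1 and 3 changed places. The macrophage and leukocyte sums of these samples, 243, 138, 262 and 916 CPM, had the same order as the fibroblast sums.

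Among the 15 genes that act on peroxides, 7 rose in BL6 (Gpx1, Gpx4, Gpx7, Gpx8, Prdx2, Prdx4 and Prdx5) and Cat fell. In MRL 4 rose (Gpx4, Gpx8, Prdx2 and Prdx4) and Prdx1 fell. The shares over all genes were 35.1% higher and 32.8% lower in BL6, and 22.3% and 22.7% in MRL. The largest rises in both strains were those of Gpx8 and Prdx4, enzymes of the endoplasmic reticulum.

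Gpx8 (ENSMUSG00000021760; chromosome 13, 113042753 to 113046410), a membrane-bound peroxidase of that compartment, held 8.98, 6.56, 4.97 and 4.63 CPM in unoperated BL6 and 20.7, 10.4, 19.01 and 43.8 CPM in operated BL6. No samples overlapped, and replicate 4 again held the highest value. The level was 3.75-fold higher (log2 fold change 1.91, SE 0.35, adjusted p = 0.000273). MRL muscle held 12.3, 7.21, 7.26 and 7.64 CPM and 15.997, 14.9, 22.1 and 19.6 CPM, also without overlap (log2 fold change 1.08, adjusted p = 0.0196). The MRL call was lost, at adjusted p of 0.0541 to 0.0588, without replicate 2, 3 or 4 of the unoperated or replicate 3 of the operated group.

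Prdx4 (ENSMUSG00000025289; chromosome X, 155323918 to 155340754), which couples peroxide removal to disulfide formation in the endoplasmic reticulum, held 7.75, 6.25, 4.89 and 4.11 CPM in unoperated and 12.96, 9.80, 14.1 and 23.998 CPM in operated BL6 (log2 fold change 1.41, SE 0.26, adjusted p = 0.000318). In MRL it held 9.995, 6.67, 7.19 and 6.26 and 13.2, 12.7, 16.4 and 10.2 CPM (log2 fold change 0.80, adjusted p = 0.0215). Groups were apart in both strains, narrowly in MRL. Leaving out the same 4 MRL libraries as for Gpx8 ended the MRL call (adjusted p of 0.0546 to 0.0737). Gpx7, another peroxidase of the endoplasmic reticulum, rose by 1.29 in BL6 (adjusted p = 0.000612), and its MRL value was 0.64 (adjusted p = 0.0555). In Gpx7, Gpx8 and Prdx4, replicate 4 was the highest of the operated BL6 samples and replicate 2 the lowest. The fibroblast sums and the macrophage and leukocyte sums shared these extremes. In operated MRL, replicate 4 held the lowest Gpx7 and Prdx4, 10.7 and 10.2 CPM, and 19.6 CPM of Gpx8, inside the range of its group. Its fibroblast sum was 5602 CPM, in a group of 2959 to 5912 CPM. The part of cell composition in these values was not tested.

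Gpx1, the cytosolic glutathione peroxidase, went from 70.7, 69.9, 58.7 and 46.003 to 107, 127, 119.9 and 185 CPM in BL6. The operated samples were all above the unoperated ones (log2 fold change 1.14, SE 0.20, adjusted p = 0.000217). The MRL samples held 89.1 ± 21.1 and 121 ± 18.4 CPM (log2 fold change 0.45, adjusted p = 0.0786), and without replicate 1 of the unoperated group the adjusted p was 0.0295. Gpx4, which reduces lipid peroxides in membranes, went from 48.03, 64.3, 58.4 and 54.3 to 81.5, 93.4, 93.3 and 80.7 CPM in BL6, without overlap (log2 fold change 0.63, adjusted p = 0.000279). Its rise in MRL was 0.37 (adjusted p = 0.0186), and the call was lost without replicate 3 of the unoperated group (adjusted p = 0.0566) or replicate 1 of the operated group (0.0588). Gpx3, the secreted form and the most abundant member per length in unoperated BL6, was called in neither strain, and in operated BL6 it held 460.5, 598, 642 and 1398 CPM.

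Cat, the catalase gene (ENSMUSG00000027187; chromosome 2, 103453849 to 103485160), whose product splits hydrogen peroxide in peroxisomes, held 143, 159, 169 and 172 CPM in unoperated and 92.7, 105, 91.8 and 118 CPM in operated BL6. All operated samples were lower (log2 fold change -0.66, SE 0.13, adjusted p = 0.000359). Its MRL levels were 115, 116, 118 and 120.5 CPM before and 94.6, 88.8, 96.7 and 131 CPM after surgery. Replicate 4 of operated MRL was above all unoperated MRL samples and the other 3 were below them. The MRL change was -0.19 (adjusted p = 0.224), and without that replicate the adjusted p was 0.0186.

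The peroxiredoxins did not move together. Prdx2, a cytosolic form, went from 119, 126, 122 and 121 to 224, 201, 255 and 213 CPM in BL6 and from 155, 158, 127 and 163 to 228, 194, 192 and 185 CPM in MRL. The groups were apart in both strains (log2 fold change 0.87, adjusted p = 2.26e-05 in BL6, and 0.41, adjusted p = 0.00876 in MRL). Prdx1 (ENSMUSG00000028691; chromosome 4, 116685544 to 116700822), the other main cytosolic form, went from 164, 177, 142 and 152 to 169.6, 212, 180.5 and 170.1 CPM in BL6, with overlap, and from 117, 113, 105 and 112 to 91.6, 87.6, 70.8 and 93.9 CPM in MRL, without overlap. Its log2 fold change was 0.20 in BL6 (adjusted p = 0.119) and -0.38 in MRL (adjusted p = 0.0146), and the MRL call was lost without replicate 3 of the operated group (adjusted p = 0.0556). Prdx5 rose in BL6 (log2 fold change 0.48, adjusted p = 0.0126), while Prdx3 and Prdx6 were called in neither strain. Nor were the sulfiredoxin gene Srxn1 or the sestrin genes Sesn1 and Sesn3. Near-identical copies among annotated transcripts of other genes (GENCODE M21), at 95% identity or more over at least 200 bases, were found for 9 members. These were Ftl1, Gpx4, Gstp1, Prdx1, Glrx3, Gstm1, Prdx2, Sod1 and Txn1. Reads could have been split between these members and their copies, so their values are less certain. The unannotated genome was not searched. Opposite-strand exons also overlap Hmox2 (40.2% of its exon bases), Ftl1 (26.5%), Txnip (19.4%), Prdx5 (19.1%), Gstm5 (13.9%) and Keap1 (10.9%). Smaller opposite-strand overlaps exist for Gss, with Acss2 (6.68%), Gssos2 (6.51%) and Gssos1 (5.44%), for Prdx2, with Rnaseh2a (5.80%) and Junb (5.67%), for Gclm and for Txnrd2, each under 5%.

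Among the members, 5 code for selenoproteins, in which a TGA codon inside the reading frame codes for selenocysteine and not for a stop. Their codons are shown in capitals with the bases on either side, from the longest annotated transcript (GENCODE M21, build GRCm38) that marks one, to show that in both reductases a single codon stands between it and the stop codon, and that in the 3 peroxidases it lies well before the stop.
Gpx1 (codon 47 of 202): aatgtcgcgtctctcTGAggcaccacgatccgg
Gpx3 (codon 73 of 227): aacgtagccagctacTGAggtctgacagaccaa
Gpx4 (codon 129 of 254): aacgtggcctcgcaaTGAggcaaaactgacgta
Txnrd1 (codon 612 of 614): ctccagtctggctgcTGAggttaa
Txnrd2 (codon 526 of 528): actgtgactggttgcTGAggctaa
The count of codons includes the stop. These 5 genes did not change alike. In BL6, Gpx1, Gpx4 and Txnrd2 rose, Txnrd1 fell and Gpx3 was not called. In MRL, Gpx4 and Txnrd2 rose, Txnrd1 fell, and Gpx1 and Gpx3 were not called.

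Of the 17 glutathione genes, 6 rose in BL6 (Gss, Glrx5, Gstm1, Gstm2, Gstt1 and Gstk1) and 3 fell (Gclm, Gsr and Glrx). In MRL, Gss rose and Gsr, Glrx and Gsto1 fell. Of all genes, 35.1% were higher and 32.8% lower in BL6, and 22.3% and 22.7% in MRL. Transferases make up most of the 17 genes. In BL6, Gstm1, Gstm2, Gstt1 and Gstk1 of them rose, and Gsta4, Gstm5, Gstp1, Gsto1, Mgst1 and Mgst3 were not called. No transferase rose in MRL. The falls in BL6 were in a synthesis subunit, the reductase and a glutaredoxin.

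Glrx (ENSMUSG00000021591; chromosome 13, 75839868 to 75850154) codes for the cytosolic glutaredoxin, which removes glutathione from protein thiols, and it had the largest fall of any member in BL6. It held 26.4, 24.8, 24.3 and 24.7 CPM in unoperated and 8.44, 10.8, 9.38 and 7.39 CPM in operated BL6. Both groups were tight and far apart, a 2.78-fold fall (log2 fold change -1.48, SE 0.15, adjusted p = 9.57e-06). MRL muscle held 48.1, 51.8, 44.8 and 55.3 CPM and 29.6, 40.3, 22.3 and 31.4 CPM, again without overlap (log2 fold change -0.69, SE 0.15, adjusted p = 0.00304). The operated MRL samples, at 22.3 to 40.3 CPM, lay beside the unoperated BL6 samples, at 24.3 to 26.4 CPM.

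Gsr, glutathione reductase, held 22.9, 26.6, 22.1 and 22.8 CPM in unoperated and 17.8, 17.7, 19.2 and 20.4 CPM in operated BL6 (log2 fold change -0.33, adjusted p = 0.0108). With scaling to total counts alone, which moves the median of all genes in BL6 up by 0.14 on the log2 scale, the BL6 fall of Gsr was not called (adjusted p = 0.359), nor was the MRL fall of the gene (0.266). In MRL it held 34.3 ± 2.20 and 27.8 ± 4.04 CPM, with replicate 4 of the operated group inside the unoperated range (log2 fold change -0.30, adjusted p = 0.0269). The MRL call was lost without replicate 2 or 4 of the unoperated or replicate 1, 2 or 3 of the operated group (adjusted p of 0.0637 to 0.0823).

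Glutathione itself is made by glutamate-cysteine ligase, with the catalytic subunit Gclc and the modifier subunit Gclm, and then by glutathione synthetase. Gclm went from 23.6, 23.8, 16.4 and 17.7 to 13.6, 16.8, 11.8 and 13.5 CPM in BL6, with replicate 2 of the operated group just inside the unoperated range (log2 fold change -0.55, SE 0.15, adjusted p = 0.0039). Gclc held 19.4 ± 2.39 and 15.8 ± 3.26 CPM there (log2 fold change -0.29, adjusted p = 0.0748), and 19.3 ± 2.18 and 20.03 ± 1.60 CPM in MRL (log2 fold change 0.05, adjusted p = 0.779). The BL6 value of Gclc passed without replicate 3 of the unoperated group (adjusted p = 0.0411) or replicate 1 of the operated group (0.0218). Gss rose by 0.35 in BL6 (adjusted p = 0.0157) and by 0.41 in MRL (adjusted p = 0.0118), both without overlap of groups.

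The transferases conjugate glutathione to electrophiles. In BL6, Gstt1 rose from 8.02 ± 0.662 to 16.6 ± 8.24 CPM (log2 fold change 1.05, adjusted p = 0.0032), and without replicate 4 of the operated group its log2 fold change was 0.68 (adjusted p = 0.0142). Gstm2 rose by 0.74, Gstm1 by 0.67 and Gstk1 by 0.44 (adjusted p = 0.00773, 0.00949 and 0.0335). The call of Gstk1 was lost without replicate 1 or 2 of the unoperated or replicate 1, 2 or 3 of the operated BL6 group (adjusted p of 0.0575 to 0.101). None of these 4 passed in MRL, where their log2 fold changes were 0.48, 0.09, 0.29 and 0.36. Gsto1, an omega-class transferase, fell by 0.31 in MRL (adjusted p = 0.0179), a call lost without replicate 3 of the operated group (adjusted p = 0.0651). Glrx5, a mitochondrial glutaredoxin of iron-sulfur cluster assembly, rose by 0.55 in BL6 (adjusted p = 0.00146). The 7 genes Glrx3, Gsta4, Gstm5, Gstp1, Mgst1, Mgst3 and Gclc were called in neither strain.

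In the thioredoxin system the same 3 of 5 genes were called in both strains, Txn1 and Txnrd2 upward and Txnrd1 downward. Calls in the same direction in both strains were made for 40.8% of all genes tested. Txn1, the cytosolic thioredoxin, went from 37.8, 39.9, 36.4 and 34.2 to 62.4, 71.7, 63.8 and 77.5 CPM in BL6 and from 53.9, 47.7, 39.8 and 53.2 to 67.6, 72.8, 70.6 and 55.3 CPM in MRL. The groups did not overlap in either strain (log2 fold change 0.89, adjusted p = 2.79e-05 in BL6, and 0.45, adjusted p = 0.00731 in MRL).

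Txnrd1 (ENSMUSG00000020250; chromosome 10, 82833951 to 82897712), the cytosolic reductase that recycles TXN1, went the other way. It held 109, 112, 105 and 109.7 CPM in unoperated and 48.4, 64.03, 44.3 and 40.4 CPM in operated BL6 (log2 fold change -1.15, SE 0.18, adjusted p = 7.59e-05). The MRL samples held 136, 182, 162 and 182 CPM and 70.5, 90.5, 64.7 and 114 CPM (log2 fold change -0.96, SE 0.18, adjusted p = 0.00145). Operated samples were below all unoperated ones in both strains, by 2.22-fold in BL6 and 1.95-fold in MRL.

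Txnrd2, the mitochondrial reductase, rose from 22.1, 23.3, 24.6 and 22.2 to 36.5, 38.6, 34.5 and 29.002 CPM in BL6 (log2 fold change 0.59, adjusted p = 0.000648). In MRL it went from 25.3, 26.3, 21.96 and 25.3 to 36.5, 35.7, 35.2 and 24.9 CPM (log2 fold change 0.42, adjusted p = 0.0124). Replicate 4 of operated MRL lay inside the unoperated range, and the other 3 operated samples lay above it. Txn2, the mitochondrial thioredoxin, held 267 ± 8.66 and 270.3 ± 41.5 CPM in BL6, with log2 fold changes of 0.02 and 0.01 in BL6 and MRL. Txnip, which binds and inhibits thioredoxin, was called in neither surgery comparison.

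The 2 metallothioneins had the largest rises of all members in BL6, and all 4 metal-binding genes passed the test there. All 4 were called higher, beside 35.1% of all genes. None of the 4 passed in MRL by edgeR's test, where the fold changes had the same sign and 2 had an unadjusted p under 0.05. In that strain 45.0% of all genes passed, 22.3% of them upward as a share of all genes. The authors' deposited table calls Ftl1 in MRL. Mt1 (ENSMUSG00000031765; chromosome 8, 94179082 to 94180327) and Mt2 (ENSMUSG00000031762; chromosome 8, 94172664 to 94173568) code for the small cysteine-rich proteins that bind zinc and copper.

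Mt1 held 17.1, 14.3, 14.5 and 16.1 CPM in the unoperated BL6 samples and 76.7, 111, 42.8 and 57.1 CPM in the operated ones. All operated samples were far above all unoperated ones, and they differed among themselves, with replicate 2 the highest and replicate 3 the lowest. The level was 4.64-fold higher (log2 fold change 2.21, SE 0.26, adjusted p = 1.75e-05). In MRL, Mt1 held 32.3, 27.4, 19.7 and 38.1 CPM before and 39.1, 46.4, 57.98 and 35.9 CPM after surgery, with overlap (log2 fold change 0.61, SE 0.25, adjusted p = 0.0598).

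Mt2 held 8.53, 4.67, 4.18 and 5.68 CPM in unoperated and 49.2, 79.6, 17.5 and 31.5 CPM in operated BL6, with the operated samples in the same order as for Mt1. This was 7.72-fold higher (log2 fold change 2.95, SE 0.41, adjusted p = 4.28e-05). Its MRL levels were 15.01, 9.99, 6.03 and 16.9 CPM and 22.4, 20.05, 29.6 and 21.3 CPM, where all operated samples were above all unoperated ones (log2 fold change 0.96, SE 0.39, adjusted p = 0.0549). Both MRL values were near the threshold: Mt1 passed without replicate 4 of the unoperated (adjusted p = 0.0425) or of the operated group (0.0398), and Mt2 without replicate 1 (0.0489) or 4 (0.0457) of the unoperated group. Replicate 2 of operated BL6, with the highest Mt1 and Mt2, had the lowest macrophage and fibroblast marker sums of its group, 138 and 2024 CPM, and the highest muscle fibre sum, 149331 CPM. The order was the other way in replicates 3 and 4. Replicate 4, with sums of 916, 9831 and 55586 CPM, held more Mt1 and Mt2 than replicate 3, with 262, 3483 and 82668 CPM. The part of cell composition in these values was not tested. Gm45774, on the opposite strand, covers 73.5% of the exon bases of Mt2, and without strand its reads could not be told from those of Mt2.

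The metal response element, bound by the zinc-sensing factor MTF1, was looked for as TGCACNC or TGCGCNC, on both strands, in the 250 bases before RefSeq's start sites. It was present in 17 of the 62 member windows and in 21.4% of all windows, and 3 or more matches were present in 1.26% of windows. The 2 metallothionein windows are printed because these genes rose most, with the matches in capitals (GRCm38.p6, plus strand, 1 match in Mt1 and 3 in Mt2).
Mt1 (chr8:94178839-94179088): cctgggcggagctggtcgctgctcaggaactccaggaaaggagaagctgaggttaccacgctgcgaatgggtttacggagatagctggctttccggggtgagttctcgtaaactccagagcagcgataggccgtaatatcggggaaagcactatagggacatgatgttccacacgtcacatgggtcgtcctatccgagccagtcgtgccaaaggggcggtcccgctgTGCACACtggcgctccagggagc
Mt2 (chr8:94172368-94172617): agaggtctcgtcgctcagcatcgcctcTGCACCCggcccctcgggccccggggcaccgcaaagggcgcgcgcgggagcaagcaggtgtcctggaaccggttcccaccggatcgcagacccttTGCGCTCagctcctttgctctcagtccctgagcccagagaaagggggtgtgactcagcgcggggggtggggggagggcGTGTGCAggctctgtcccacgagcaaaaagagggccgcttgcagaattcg
The matches begin 23 bases before the start in Mt1, and 223, 128 and 50 bases before it in Mt2, where the match nearest to the start is on the opposite strand. The RefSeq starts used here, at 94179089 and 94172618, differ from those in GENCODE M21, which puts starts at 94179082, 94179211 and 94179241 for Mt1 and at 94172664 and 94172860 for Mt2, so bases between these starts were not searched. Of the 15 members with a match, 8 rose and 2 fell in BL6, and of the 30 members without one 12 rose and 5 fell, beside 35.1% higher and 32.8% lower of all genes. In MRL, 2 of the 15 rose and 1 fell, and 6 of the 30 rose and 5 fell, beside 22.3% higher and 22.7% lower of all genes.

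Ftl1 (ENSMUSG00000050708; chromosome 7, 45457944 to 45459884), the ferritin light chain, held 18.3, 17.8, 16.1 and 12.4 CPM in unoperated and 32.2, 33.1, 34.6 and 57.1 CPM in operated BL6. The groups were well apart, with replicate 4 the highest (log2 fold change 1.28, SE 0.21, adjusted p = 0.000117). MRL muscle held 40.8, 25.6, 26.6 and 31.2 CPM before and 31.6, 34.96, 49.5 and 40.5 CPM after surgery, with overlap (log2 fold change 0.34, adjusted p = 0.189). Ftl1 has 6 near-identical copies among annotated genes, at up to 99.6% identity, none of them in the count table. Its counts thus depend on how reads with several matches were treated.

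Fth1 (ENSMUSG00000024661; chromosome 19, 9980598 to 9985098), the ferritin heavy chain that oxidises iron for storage, held 1050.4, 1260.5, 1259 and 1137 CPM in unoperated and 1519, 2014, 1673 and 1454 CPM in operated BL6. These groups did not overlap (log2 fold change 0.50, SE 0.16, adjusted p = 0.013). In MRL it held 1335 ± 130.4 and 1468 ± 301 CPM (log2 fold change 0.14, adjusted p = 0.5).

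**Figure D3:**
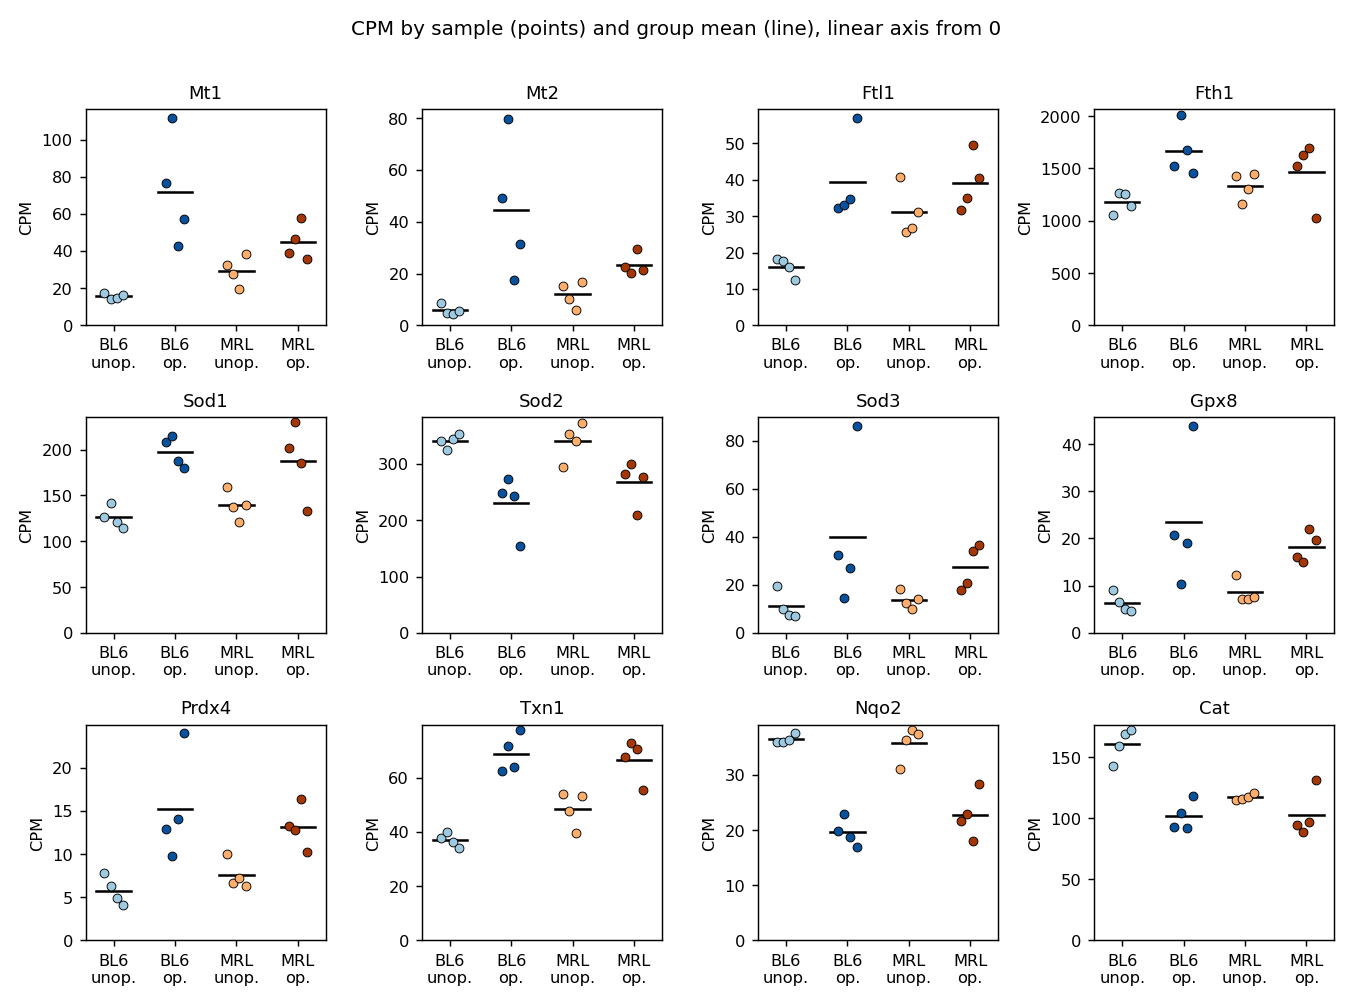
CPM of 12 members in each sample (vertical axes, linear from 0) by group (horizontal axis); points are samples and lines group means. Operated BL6 points lie above unoperated BL6 points for Mt1, Mt2, Ftl1, Fth1, Sod1, Gpx8, Prdx4 and Txn1, and below them for Sod2, Nqo2 and Cat; in Sod3, replicate 4 of operated BL6 stands at 86.0 CPM.

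The design also asks whether the strains differed. The comparisons between strains use the same groups as the surgery comparisons, so their values are given side by side and not as separate evidence. For both strains, mm10 is the only genome build named. Whether sequence differences between the strains shifted counts, as they could in genes with near-identical copies, was not tested. Among unoperated samples 9 of 51 members passed, against 10.4% of all genes. Higher in MRL were Glrx, Ftl1, Mt1, Txnip, Txnrd1, Gsr and Txn1 (5.02% of all genes were higher), and lower were Prdx1 and Cat (5.36% lower). Groups were apart in 13 members, beside 25.1% of all genes. After surgery 4 of 51 passed, beside 12.9% of all genes: Glrx, Txnrd1 and Gsr were higher in MRL (7.60% of all genes) and Prdx1 was lower (5.27%). These 4 were also the members with groups apart, beside 13.6% of all genes, and all 4 were among the 9 of the unoperated comparison.

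Glrx was 1.997-fold higher in MRL than in BL6 without surgery (log2 fold change 0.998, SE 0.15, adjusted p = 0.000266) and 3.43-fold higher after it (log2 fold change 1.78, SE 0.16, adjusted p = 7.71e-07). Gsr was higher in MRL by 0.54 unoperated (adjusted p = 0.00234) and 0.57 operated (adjusted p = 0.00156). For Txnrd1 the differences were 0.60 (adjusted p = 0.0381) and 0.79 (adjusted p = 0.00693). All 3 genes, which reduce disulfides or glutathionylated thiols, also fell with surgery in both strains, so that their lowest level was in operated BL6 and their highest in unoperated MRL.

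Prdx1 was lower in MRL by 0.51 on the log2 scale without surgery (log2 fold change -0.51, adjusted p = 0.00711) and by 1.09 after it (log2 fold change -1.09, SE 0.11, adjusted p = 5.97e-06). In both comparisons all MRL samples lay below all BL6 samples. Prdx1 has 2 near-identical copies among annotated genes, neither of them in the count table. With scaling to total counts alone, which shifted the median of all genes in the unoperated comparison by 0.14, Prdx1 was not called among unoperated samples and the 9 calls of that comparison were all higher.

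Ftl1 and Mt1 were higher in unoperated MRL by 0.94 (SE 0.21, adjusted p = 0.00711) and 0.92 (SE 0.26, adjusted p = 0.0296), with groups apart in both. The level of Ftl1 was highest in replicate 1 of unoperated MRL, the sample with the macrophage and leukocyte sum of 549 CPM, and without that replicate its difference was 0.77 (adjusted p = 0.0346). Between the unoperated strains all 13 macrophage and leukocyte markers had a positive log2 fold change (median 1.32), as did all 10 fibroblast markers (median 0.67), and 9 of 10 muscle fibre markers had a negative one (median -0.28). None of these markers passed the adjusted threshold in edgeR's test, and 8, 3 and 1 had an unadjusted p under 0.05; their part in the strain differences was not tested. After surgery neither Ftl1 nor Mt1 passed, at -0.01 (adjusted p = 0.99) and -0.68 (adjusted p = 0.0897). Cat was lower in unoperated MRL by 0.46 (adjusted p = 0.0281), where the 4 MRL samples lay between 114.6 and 121 CPM and the BL6 samples between 143 and 172 CPM. Of these 9 unoperated calls, 4 held on leaving out any 1 library (Gsr, Glrx, Prdx1 and Ftl1). Cat was lost without any of 7 of the 8 libraries (adjusted p of 0.0598 to 0.0876), Txn1 and Txnrd1 also in 7 of 8 (0.0597 to 0.143 and 0.064 to 0.107), Mt1 in 6 (0.0511 to 0.105) and Txnip in 5 (0.0643 to 0.116). The libraries whose removal did not end a call were replicate 3 of unoperated MRL for Txn1, replicate 1 of unoperated MRL for Txnrd1, replicate 1 of unoperated BL6 for Cat, replicate 3 of unoperated MRL and 1 of unoperated BL6 for Mt1, and replicate 3 of unoperated MRL and 3 and 4 of unoperated BL6 for Txnip.

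**Figure D4:**
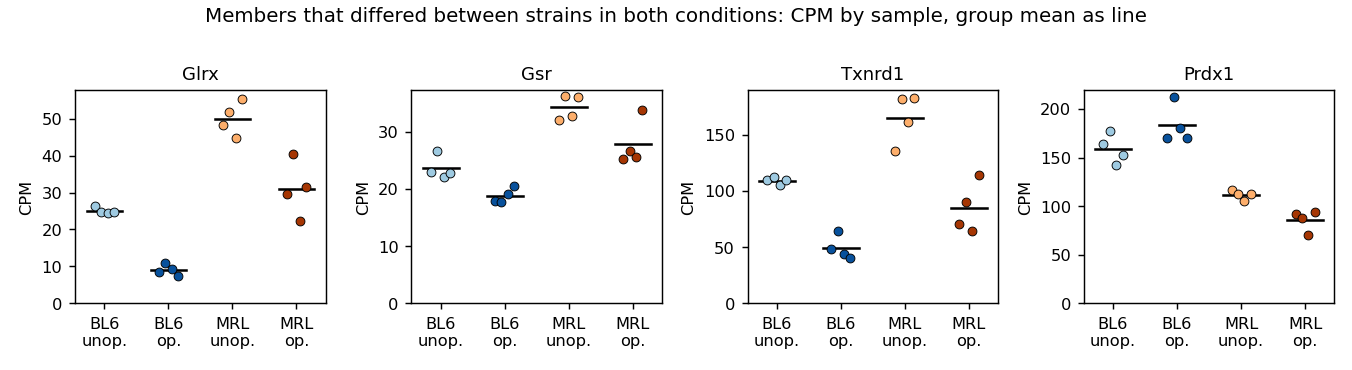
CPM of Glrx, Gsr, Txnrd1 and Prdx1 in each sample (vertical axes, linear from 0) by group (horizontal axis); points are samples and lines group means. For Glrx the MRL points lie above the BL6 points of the same condition, with operated BL6 at 7.39 to 10.8 CPM and unoperated MRL at 44.8 to 55.3 CPM, and for Prdx1 they lie below.

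Whether surgery acted differently on a member in MRL than in BL6 was tested directly as an interaction. No member passed in edgeR's quasi-likelihood test, where 29 of 11709 genes (0.248%) did, 0.154% upward and 0.0939% downward, and 9 of 51 members had an unadjusted p under 0.05, beside 1843 of the 11709 genes. limma voom also called none, and DESeq2 called 5 (Prdx1, Prdx2, Glrx, Mt1 and Mt2). The lowest adjusted p among members was that of Mt1, with a difference between the MRL and BL6 log2 fold changes of -1.61 (SE 0.36, adjusted p = 0.0782). For Glrx the difference was 0.78 (SE 0.21, adjusted p = 0.131), and without replicate 3 of operated MRL it was 0.91 and passed (adjusted p = 0.0482). For Prdx1 it was -0.58 (SE 0.16, adjusted p = 0.133). The other 6 members with an unadjusted p under 0.05 were Cat, Gpx1, Prdx2, Txn1, Mt2 and Ftl1.

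Of the 13 members called in the same direction in both strains, 12 had the larger log2 fold change in BL6, the exception being Gss; over all genes 3986 of 4774 did. The sign of the fold change was the same in both strains for 41 of 51 members. It was the same for 10272 of the 11709 genes tested. In edgeR's test, no member called in BL6 but not in MRL was shown to differ between the strains; DESeq2 called that difference for Mt1 and Mt2.

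**Figure D5:**
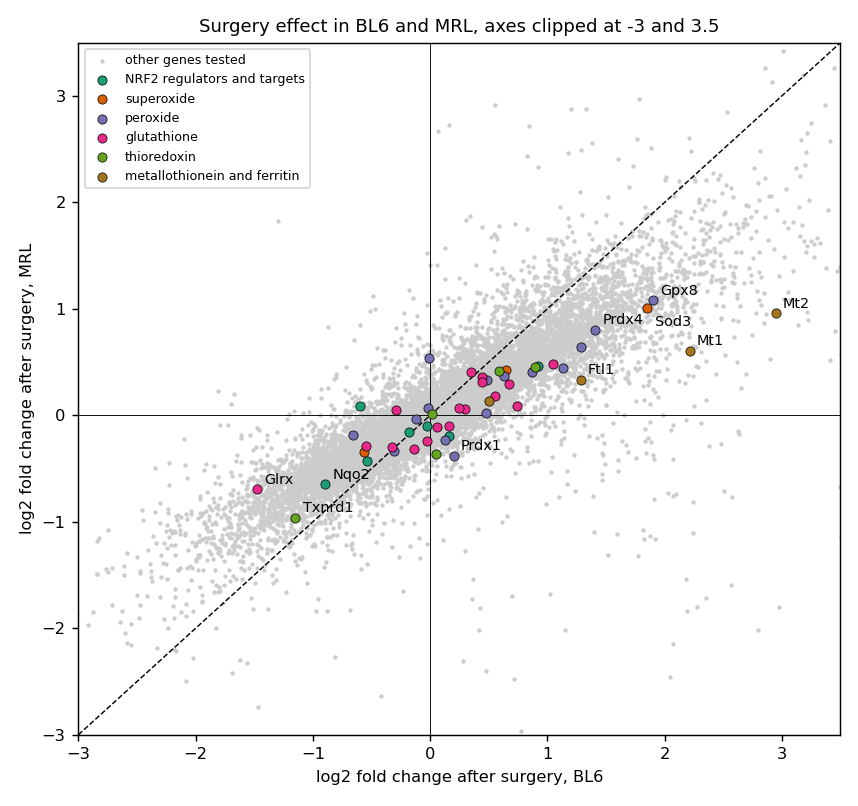
Log2 fold change after surgery in BL6 (horizontal axis) and MRL (vertical axis) for the members, coloured by system, over all other genes tested (grey); the dashed line marks equal change, and axes stop at -3 and 3.5. Mt2 lies farthest to the right, at 2.95 in BL6 and 0.96 in MRL, and Prdx1 is the member called only in MRL with a positive value in BL6 (0.20 and -0.38).

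Genes of the same pathways outside the 51 were counted from lists that were likewise chosen with earlier results known. Of 23 other NRF2 targets and partners, 12 rose and 6 fell in BL6, and 5 rose and 4 fell in MRL. Blvrb, a biliverdin reductase, rose by 1.89 in BL6 and 1.34 in MRL, and Tkt, transketolase of the pentose phosphate pathway, by 1.89 and 1.30. Bach1, a repressor at antioxidant response elements, fell by 1.03 and 1.01, and Trim16 by 0.93 and 1.01. All 4 passed the test in both strains (adjusted p of 0.0139 or less).

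Of 16 other glutathione enzymes, 4 rose and 5 fell in BL6 and 3 rose and 4 fell in MRL. Gstt3 and Ggt5, a transferase and a gamma-glutamyltransferase, rose in both strains (Gstt3 by 1.55 in BL6 and 1.12 in MRL). Chac1 and Chac2, which break glutathione down, fell in both: Chac1 went from 152 ± 37.8 to 26.8 ± 28.6 CPM in BL6 (SD, n = 4) and from 94.6 ± 25.9 to 29.3 ± 12.8 CPM in MRL. The SD of operated BL6 exceeded its mean.

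Of 23 other thiol and selenium proteins, 9 rose and 5 fell in BL6 and 5 rose and 7 fell in MRL. Selenom and Selenon, selenoproteins of the endoplasmic reticulum, rose by 1.65 and 1.30 in BL6 and by 0.87 and 0.70 in MRL. Msrb3, a methionine sulfoxide reductase, fell by 1.73 and 1.12, and Selenot by 1.19 and 0.63.

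Of 31 genes of metal transport and iron control, 5 rose and 11 fell in BL6, and 5 rose and 8 fell in MRL. Mt3, another metallothionein, rose from 0.648 ± 0.208 to 4.50 ± 1.70 CPM in BL6 (SD, n = 4; log2 fold change 2.79) and from 1.88 ± 0.774 to 4.25 ± 2.41 CPM in MRL (log2 fold change 1.17, adjusted p = 0.0345). Atox1, the copper chaperone that serves ATP7A, rose by 1.57 and 0.94, while Atp7a, the copper exporter, fell by 2.37 and 1.14. Slc40a1, the iron exporter ferroportin, fell from 42.5 ± 4.59 to 14.5 ± 1.46 CPM in BL6 and from 35.1 ± 6.27 to 15.2 ± 6.30 CPM in MRL.

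Of 15 enzymes that produce superoxide or peroxide, 8 rose and 2 fell in BL6 and 5 rose and 1 fell in MRL. Nox4, an NADPH oxidase that releases hydrogen peroxide, rose from 2.21 ± 1.29 to 8.82 ± 4.03 CPM in BL6 and from 2.001 ± 0.867 to 9.28 ± 3.87 CPM in MRL (log2 fold change 2.01 and 2.21). Cyp2e1 rose by 1.14 in BL6 and 1.21 in MRL. Maob, monoamine oxidase B, the 1 gene of this list called lower in both strains, fell by 0.89 and 0.84. No gene of the 5 lists passed the interaction in edgeR's test or limma voom; DESeq2 called 1 other NRF2 target and 1 thiol or selenium protein. At an unadjusted p under 0.05, edgeR gave 3, 2, 4, 8 and 6 genes in the order of the lists above. Across the 5 lists, called shares in BL6 ran from 51.6 to 78.3%, around the 67.9% of all genes. By direction, 35.1% of all genes were higher and 32.8% lower in BL6. In MRL 45.0% of all genes were called, 22.3% higher and 22.7% lower.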

How the data were processed

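RNA from minced rotator cuff muscle was purified on columns with DNase treatment and made into Illumina libraries, per the labels' protocols. The authors deposited a table of gene counts and a table of their own comparisons with log2 fold changes and p-values. The submitters' processing notes name FastQC, STAR, edgeR and the build mm10; the counting program, annotation and use of strand are not given in the sources used here.

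The members and gene lists were chosen with earlier results of these data known. From the deposited counts, genes with enough counts by filterByExpr (minimum count 10; 1 gene removed) were scaled by TMM and tested in all 16 samples with 4 group means by edgeR 4.0.16 (quasi-likelihood, R 4.3.3), with Benjamini-Hochberg adjustment over all 11709 genes. Per-sample values are given for the 5 called members that rose most and fell most with surgery, the 3 that differed most each way between strains, the 3 with the smallest interaction p and a fixed set of role genes; of each companion list, the 2 that rose and the 2 that fell most among those called in both strains are named. The alternatives were RLE scaling, total counts, 2 other filters (none, and a mean of at least 5 CPM), DESeq2 1.42.0, limma 3.58.1 (voom), a replicate block, only the groups compared, and leaving out libraries. Total counts of 24323862 to 43552964 put the floor of 3 counts at 0.0689 to 0.123 CPM, which covers counting error only. No 2 samples of a group agreed within counting noise (chi-square per degree of freedom 14.8 to 405). The procedure was also run on simulated data for the BL6 surgery comparison over 11709 genes. There, 67, 67 and 66 genes were changed by 0.5, 1 and 2 on the log2 scale. It recovered 19.4%, 76.1% and 98.5% of them, and 6.52% of its calls were false. In the data 67.9% of genes were called. The Benjamini-Hochberg cutoff depends on the share of changed genes, so these figures do not describe the calls reported here.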

Additional observations from a re-analysis of the deposited data

Results flagged for a closer look

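In 13 of 204 sets of 4 samples (51 members in 4 groups), the highest or lowest sample lay farther from the rest than Dixon's 95% limit allows; chance gives about 1 in 20 such sets. In operated MRL, replicate 4 was high in Nfe2l1 (922 CPM against 373 to 399), Sesn3 (57.1 CPM against 23.0 to 24.4) and Mgst1 (62.9 CPM against 34.1 to 37.2) and low in Txnrd2 (24.9 CPM against 35.2 to 36.5). Replicate 4 of this group also had the lowest share of counts in mitochondrial genes, 11.8%, and its part in these values was not tested. Replicate 3 of operated MRL was high in Gpx1 (149 CPM against 109 to 114) and low in Prdx3 (176 CPM against 222 to 230.2), and replicate 2 was high in Gstp1 (49.8 CPM against 31.6 to 34.5).

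In operated BL6, replicate 4 was high in Ftl1 (57.1 CPM against 32.2 to 34.6) and low in Prdx5 (217 CPM against 314 to 333), and replicate 2 was high in Keap1 (71.0 CPM against 54.0 to 56.7). Without replicate 4, the BL6 calls of Ftl1 and Prdx5 remained. Among unoperated samples, replicate 1 of MRL was high in Gpx8 (12.3 CPM against 7.21 to 7.64), replicate 2 of BL6 was high in Gsr (26.6 CPM against 22.1 to 22.9), and replicate 1 of BL6 was low in Gsta4 (16.4 CPM against 22.1 to 22.9).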

How the results depend on the processing

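No call reversed under any alternative run. In BL6, 28 of the 30 surgery calls held in all of them (the exceptions were Gsr and Gstk1), and in MRL 8 of 15 did. Among the strain comparisons, 3 of 9 unoperated and 3 of 4 operated calls held. The MRL count of 15 was 9 to 20 on leaving out 1 library and 23 (14 higher, 9 lower) without replicate 4 of operated BL6 and replicate 1 of unoperated MRL. The unoperated strain count of 9 was 4 to 8 on leaving out 1 library and 16 (12 higher, 4 lower) when only the groups compared were fitted; over all genes that fit called 2438 in place of 1216, and 575 in place of 1507 among operated samples. The interaction count of 0 was 0 to 1 on leaving out 1 library and 5 with DESeq2; over all genes it was 29, beside 250 with DESeq2, 14 with total counts and 2 with the replicate block. With total counts the split of MRL surgery calls was 10 higher and 5 lower in place of 8 and 7, and that of unoperated strain calls 9 and 0 in place of 7 and 2. That of operated strain calls was 3 and 2 in place of 3 and 1. With total counts the MRL surgery calls of Gpx8, Prdx1, Prdx4, Gsr and Gsto1 were lost (adjusted p = 0.0534, 0.0629, 0.0657, 0.266 and 0.0942), as were the unoperated strain calls of Cat, Prdx1 and Txn1 (0.291, 0.0866 and 0.0507). With only the groups compared, Sod1 in MRL (0.064), Gstk1 in BL6 (0.0745) and Txnrd1 between operated strains (0.0627) were lost; limma voom lost Txnrd1 between unoperated strains (0.0629). The causes were not tested.

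The sample titles do not say whether replicate numbers pair the samples, and correlations over 4 samples a group cannot decide it. Mean correlations of same-numbered samples were -0.14 to 0.16, and 15 of 48 correlated best with their own number. Between the strains they were 0.16 both unoperated and operated, beside -0.05 and -0.04 for samples of other numbers. The replicate block gave 31, 17, 7, 4 and 0 calls for surgery in BL6 and MRL, the strains unoperated and operated, and the interaction; of single calls it ended those of Txn1 (adjusted p = 0.0635) and Txnip (0.063) between unoperated strains. The lowest level of any member in any sample was 4.11 CPM (Prdx4), above the floor.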

Other observations

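Members were also grouped by where their proteins act, a grouping chosen after the values were seen and not tested. The 5 members of the secretory pathway or extracellular space (Sod3, Gpx3, Gpx7, Gpx8 and Prdx4) had a median log2 fold change of 1.41 in BL6, with 4 of 5 higher, and of 0.80 in MRL, with 2 of 5 higher. The 5 members placed in the mitochondrion had a median of 0.02 in BL6, with 2 higher and 1 lower. Their median in MRL was 0.01, with 1 higher and none lower. Of all genes, 35.1% were higher in BL6 and 22.3% in MRL.

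Within operated BL6, replicate 2 held the highest value of 30 of the 51 members and replicate 4 the lowest of 26 and the highest of 14. Within unoperated BL6, replicate 1 held the lowest of 27.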
